A study of Mus musculus with 6 samples.

Results

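The NKG2 family and other lectin-like natural killer (NK) cell receptors were followed in T cells from a mouse glioma. The members are the 7 genes Klrk1, Klrd1, Klrc1, Klrc2, Klre1, Klrg1 and Klrb1c, chosen by name, of 32285 genes measured. All 7 were found in the gene expression matrix of each day. Levels were read in barcodes with at least 5000 gene UMIs (unique molecular identifiers, each marking 1 captured RNA molecule) and at most 10% mitochondrial UMIs, which left 8878 barcodes at day 13 and 4667 at day 19. The mice were wild-type C57BL/6J animals of 6 to 8 weeks with an intracranial CT2A tumor, a transplanted mouse glioma. The early group was taken on day 13, from 16 mice pooled by 4 per replicate, and the late group on day 19, from 4 mice. CD3+CD4+ or CD3+CD8+ cells were sorted and captured with 10x 5' chemistry. Gene expression, antibody tags and T cell receptor (TCR) contigs were then read from the same droplets.

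NK cells and some T cells carry these receptors to weigh activating against inhibitory signals from the cells they touch. Klrd1 encodes CD94, which pairs with the inhibitory chain NKG2A (Klrc1) or the activating chain NKG2C (Klrc2), and the pairs read the nonclassical class I molecule Qa-1, encoded by H2-T23. Klrk1 encodes NKG2D, an activating receptor for stress ligands such as those encoded by Raet1d and Ulbp1, which signals through the adaptors encoded by Hcst and Tyrobp. Klre1 encodes a chain that pairs with the Klri1 or Klri2 product, Klrg1 an inhibitory receptor for cadherins, and Klrb1c the NK1.1 antigen that defines NK cells in C57BL/6 mice. In CD8 T cells, NKG2A is known as a receptor that appears after repeated stimulation and restrains killing, and Klrg1 marks short-lived effector cells and a share of regulatory T cells.

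All 7 genes lie on chromosome 6 of the GRCm38.p6 assembly. Klrg1 stands apart at 122270596 to 122282833, and the other 6 lie between the start of Klrb1c at 128778485 and the end of Klrc1 at 129682852. RefSeq promoter windows of 250 bases before to 50 bases after a gene start were at hand for 5 members. The 5 stretches below are printed because each of the 5 members holds the RUNX core, a hexamer bound by RUNX factors, which act in CD8 T and NK cells. Capitals mark the core, TGTGGT or its reverse complement ACCACA, and each stretch reads 5′ to 3′ on the strand of its gene.
Klrk1, minus strand, chr6:129623951-129624030: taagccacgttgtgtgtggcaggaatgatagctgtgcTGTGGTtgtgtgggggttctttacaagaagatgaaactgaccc
Klrc1, minus strand, chr6:129679018-129679097: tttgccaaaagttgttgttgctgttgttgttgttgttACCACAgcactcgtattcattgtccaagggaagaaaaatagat
Klrc2, minus strand, chr6:129660597-129660676: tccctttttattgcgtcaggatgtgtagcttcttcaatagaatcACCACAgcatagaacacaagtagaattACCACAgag
Klre1, plus strand, chr6:129577963-129578042: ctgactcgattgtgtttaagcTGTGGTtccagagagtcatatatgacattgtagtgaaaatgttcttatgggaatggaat
Klrb1c, minus strand, chr6:128788688-128788767: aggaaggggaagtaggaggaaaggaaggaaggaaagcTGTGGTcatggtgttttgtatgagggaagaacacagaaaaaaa

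Starts are those of the RefSeq windows, and not all are the outer 5′ end of the gene: the start lies 18848 bases inside Klre1, 3879 inside Klrc1, 141 inside Klrc2 and 39 inside Klrk1, and at the end itself for Klrb1c. From that start, the first base of the core lay 129 bases upstream for Klrk1, 87 for Klrc1, 36 and 9 for the pair in Klrc2, 229 for Klre1 and 89 for Klrb1c. Over all 32851 promoter windows of the table, 14.0% held the hexamer on either strand. The RUNX core was chosen for printing after 8 motifs had been searched on both strands, and Klrc2 and Klre1 have 2 windows each, of which 1 of Klre1 holds no core. Of the other 7, the T-box core TCACAC was found in Klre1 (12.3% of all windows), the ETS core CAGGAA in Klrk1 (25.7%) and the NFAT core GGAAAA in Klrc2 (20.4%). The TCF core CTTTGA (13.8%), the AP-1 site TGANTCA (6.75%), the longer T-box form TCACACC (3.33%) and the ROR site AAAGGTCA (1.34%) were in none of the 5. A match is a description of letters and not a bound site. Klrc2 and its neighbour Klrc3 were the same at 289 of 300 window bases (96.3%) and at all 50 bases after the start, the end that 5' reads come from. Klrc3 reached 13 UMIs in CD8 T cells at day 13 and 19 at day 19, so the Klrc2 values are uncertain in how reads of the near copy were split.

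Gene UMIs totalled 144565182 on day 13 and 81224453 on day 19 over all barcodes. Each day had 1 capture and 4 tables of TCR contigs, and a set is the cells of 1 such table. The labels do not say whether a set is a pool of mice, a mouse or a part of the capture. In each set the cells mostly shared 1 highest multiplexing tag, a different one per set, with 99.9% to 100% of cells at day 13 and 87.3% to 92.9% at day 19. Of a set's clonotypes of at least 3 cells, 8.33% to 26.7% also had a cell in another set of day 13, and 38.8% to 66.7% at day 19. The largest of day 19, with 71 CD8 T cells in 1 set, had 1 and 2 cells in 2 others. Sets are therefore given as a spread and were not used as replicates in a test. Inside the sets, CD8 T cells (with a Cd8a or Cd8b1 UMI but no Cd4 UMI) numbered 2959 at day 13 and 1800 at day 19, with medians of 7449 and 9847 UMIs. CD4 T cells numbered 797 and 794, with 8492 and 10543 UMIs, and cells with neither coreceptor numbered 639 and 376. Cells with both coreceptors, 237 and 245, were left out as possible doublets, and 62 cell barcodes were called on both days. Of 9 T cell markers, CD8 T cells held 8 and CD4 T cells 7, the others being the coreceptor genes that define the classes.

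Levels below are UMIs per 1000000 gene UMIs of the summed cells (CPM), and a ratio is the log2 of 2 such levels with its exact 95% Poisson interval. No test between groups was made, and the intervals cover counting error only. Day, mice and capture cannot be told apart. A gene is past the fold at a log2 ratio of at least 1 or at most -1. In bulk sums such as these, fewer cells with a gene and less RNA per cell cannot be told apart, so shares of cells with a UMI are given beside the main levels. Markers of other cell types differed between the classes, and their part in the results below was not tested except where cells with under 10 myeloid UMIs are given. The 8 myeloid markers, 8 of 8 detected, summed to 10804 CPM at day 13 and 11025 at day 19 in CD4 T cells and to 2998 and 3338 in CD8 T cells, with all CD4 sums above the CD8 sums. The 6 NK cell markers, 6 of 6 detected, summed to 1255 and 1088 in CD4 and to 1047 and 1372 in CD8 T cells, so the order turned between the days. Without Gzma, Eomes and Fcer1g, the other 3 (Ncr1, Klra8 and Klrb1b) summed to 18.8 and 21.4 in CD4 and to 5.2 and 5.78 in CD8 T cells. The 5 gamma-delta T cell markers, 5 of 5 detected, were higher in CD8 T cells, at 38.1 and 57.2 against 6.75 and 4.29. The 6 dendritic cell markers, 6 of 6 detected, summed to 2461 and 2193 in CD4 and to 663 and 541 in CD8 T cells. Klrk1 and Klrd1 were also found in cells with such markers, as given below. The 4 microglia markers summed to 1093 and 895 in CD4 and to 295 and 326 in CD8 T cells. The 2 cycling markers, Mki67 and Top2a, summed to 111 and 200 in CD4 and to 212 and 326 in CD8 T cells.

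In CD8 T cells, 2 of the 7 receptor genes were higher by the fold at day 19 (Klre1 and Klrb1c) and 1 was lower (Klrg1). Over all 10638 genes with at least 100 UMIs, 1.6% were higher and 1.65% lower by the fold, and the median ratio was -0.035. Klrd1 was the 1 member with all 4 day-19 sets above all 4 day-13 sets, as were 9.02% of genes. Klrg1 was the 1 with all day-19 sets below, as were 14.9% of genes.

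Klrd1, the CD94 chain, reached 289, 301, 319 and 293 CPM in sets 1 to 4 at day 13 and 425, 580.4, 400.3 and 406 at day 19. The ratio of the summed levels, 304 and 485, was 0.67 (0.63 to 0.72). A UMI was found in 60.5% of CD8 T cells at day 13 and 73.4% at day 19 after each cell was thinned to 5000 UMIs, and in 70.6% and 83.0% without thinning.
Klrc1, the inhibitory NKG2A chain, stood at 196, 166, 127 and 135 at day 13 and at 191, 293, 184 and 177 at day 19, a ratio of 0.62 (0.56 to 0.68) that was 0.28 without set 2 of day 19. Set 1 of day 13 lay above 3 of the day-19 sets, so the days overlapped. Thinned shares of cells with a UMI were 32.2% and 41.9%.
Klrc2, the activating NKG2C chain, was low and level over sets, between 10.3 and 11.8 at day 13 and between 10.8 and 17.5 at day 19, with a ratio of 0.28 (0.043 to 0.51). Thinned shares were 5.41% and 6.17%.

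Klrk1, which encodes NKG2D, had 152, 153, 134 and 129 CPM in the 4 sets of day 13 and 156, 194, 153 and 118 in those of day 19. The ranges overlapped, the ratio was 0.21 (0.14 to 0.27), and without set 2 of day 19 it was -0.027.
Klre1 had 60.7, 40.1, 42.0 and 41.1 at day 13 and 46.5, 118, 81.2 and 77.5 at day 19. Set 1 was the highest of day 13 and the lowest of day 19. The ratio was 1.08 (0.98 to 1.19), and it was under the fold without set 2 of day 19 (0.71) or with equal weight per set (0.81). The thinned share of cells with a Klre1 UMI was 12.7% at day 13 and 25.0% at day 19.

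Klrg1 went from 15, 12.9, 8.79 and 11.6 in the sets of day 13 to 5.24, 2.92, 6.46 and 7.03 in those of day 19. Its ratio was -1.26 (-1.59 to -0.94), and under the fold without set 2 of day 19 (-0.86) or with cells outside the sets added (-0.80). Thinned shares were 3.14% and 1.06%. In cells with no T cell mark but Tmem119 or C1qa they were 0% (0 to 2.12) and 0% (0 to 4.06). The second of these intervals holds the CD8 share of day 19, which is not told apart from background there.
Klrb1c, the NK1.1 gene, had 8.75, 7.55, 14.1 and 9.06 at day 13 and 53.1, 31.8, 8.62 and 30.6 at day 19. In 3 sets of day 19 it lay above every set of day 13, and set 3 lay among them. The ratio was 1.56 (1.36 to 1.77), and the thinned shares were 3.85% (3.19 to 4.61) and 8.61% (7.36 to 10.0). In cells with no T cell mark the share depended on the marker. It was 2.91% (0.95 to 6.65) and 1.12% (0.028 to 6.10) in cells with Tmem119 or C1qa, the first overlapping the CD8 interval of day 13, and 0% (0 to 2.93) in the 124 cells with Cd209a at day 13. At day 19 the Tmem119 or C1qa interval lay under the CD8 one. The share was 4.59% (1.51 to 10.4) in the 109 cells with none of the lineage markers used below. In the 48 cells with more than 1 of them it was 8.33%. The intervals of these last groups overlap the CD8 interval, so the CD8 share of day 19 is not told apart from background there. In CD8 T cells with under 10 myeloid UMIs the levels were 11.3 and 34.1.

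**Figure D1:**
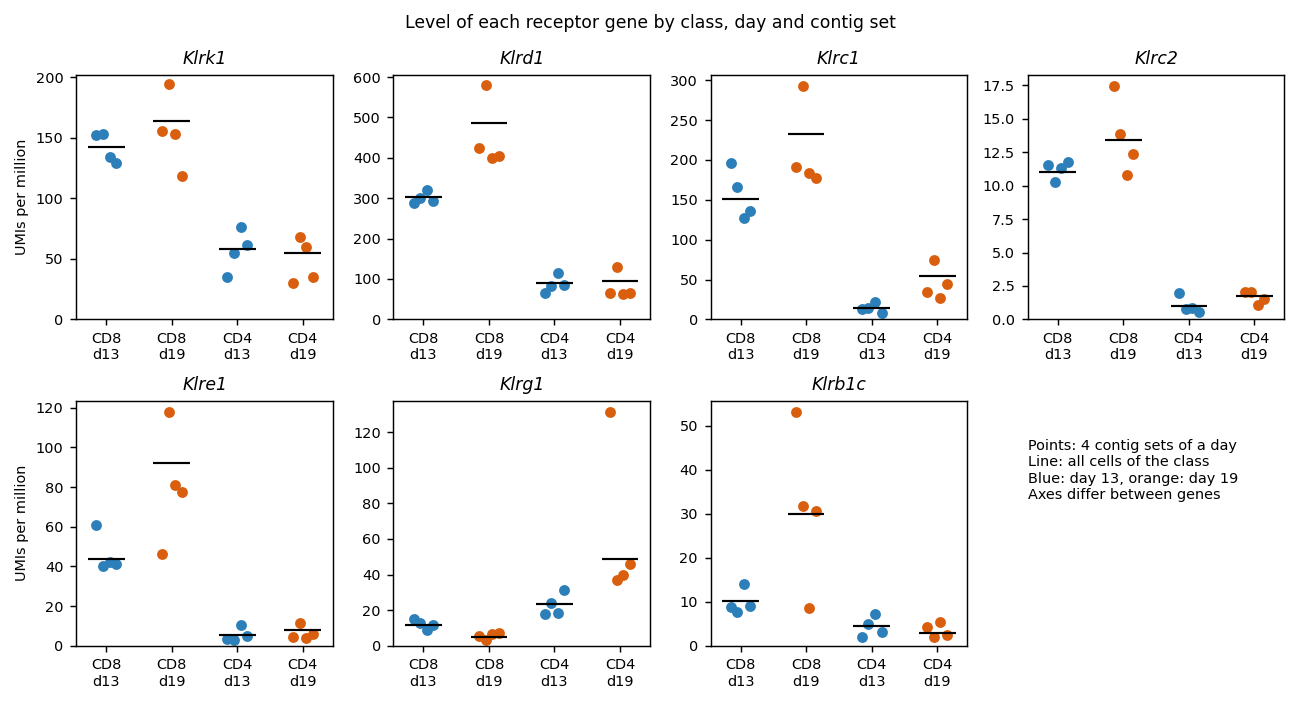
Level of each receptor gene in CPM for CD8 and CD4 T cells of day 13 and day 19, 1 panel per gene with its own linear axis. Points are the 4 contig sets and lines the level over all cells of the class. Klrd1 in CD8 T cells has its 4 day-19 points, 400.3 to 580.4, above its day-13 points, 289 to 319, and Klrg1 is the gene whose CD4 points lie above its CD8 points.

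Set 2 of day 19 was the highest of that day for Klrk1, Klrd1, Klrc1 and Klre1, and it held the largest CD8 clonotype, with 71 cells. Without this clonotype, set 2 still had 550.4 for Klrd1 and 266 for Klrc1. Among cells whose clonotype had 1 cell, set 2 and the other 3 sets of day 19 were close. Klrd1 had 384 and 352, Klrc1 117 and 109, Klre1 59.4 and 57.8, and Klrk1 133 and 118.

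Between the days, 2 of the 7 genes were higher by the fold in CD4 T cells at day 19 (Klrc1 and Klrg1) and 0 were lower. Over the 9426 genes with at least 100 UMIs, 1.82% were higher and 1.38% lower, with a median of 0.025. Both genes had all day-19 sets above all day-13 sets, as did 10.4% of genes, and 0 members had all sets below, as did 8.15%.

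Klrc1 in CD4 T cells had 13.3, 14.5, 22.2 and 7.88 CPM in the sets of day 13 and 34.1, 73.9, 27.0 and 44.4 in those of day 19. The ratio was 1.87 (1.58 to 2.16), and without set 2 of day 19 it was 1.30.
Klrg1 had 18.0, 24.2, 18.6 and 31.5 at day 13 and 131, 36.8, 39.7 and 46.0 at day 19, a ratio of 1.06 (0.82 to 1.31). It was under the fold without set 1 of day 19 (0.78), without set 1 (0.99) or set 3 (0.96) of day 13, in cells with under 10 myeloid UMIs (0.68) and without cells with a UMI of Mki67 or Top2a (0.60).
The other 5 had intervals that held 0. Klrk1 went from 58.4 to 54.7, Klrd1 from 89.3 to 95.5, Klre1 from 5.4 to 7.89, Klrc2 from 0.98 to 1.75 and Klrb1c from 4.54 to 2.92. Klrc2, at 8 and 18 UMIs, and Klrb1c, at 37 and 30, were under 100 UMIs in both days together.

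The CD4 values moved with myeloid RNA. In the 396 and 302 CD4 T cells with under 10 myeloid UMIs, Klrk1 was at 26.0 and 16.1 CPM and Klrd1 at 42.9 and 86.6. Klrc1, at 19.0 and 68.6, and Klrg1, at 34.9 and 56.1, were not lower there than in all CD4 T cells. The ratio of the days for Klrd1 was 1.01 in these cells, past the fold, against 0.097 in all CD4 T cells.

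Klrg1 was higher in the Foxp3-positive CD4 T cells. Foxp3 is the lineage factor of regulatory T cells. CD4 T cells with a Foxp3 UMI, 189 and 226 cells, had 57.0 CPM of Klrg1 at day 13 and 112 at day 19, against 12.1 and 17.2 in the 608 and 568 cells without. Klrc1 had the opposite order at both days, with 4.46 and 6.49 in Foxp3-positive cells and 18.3 and 77.6 in the rest. Klrd1 had 128 in Foxp3-positive and 76.5 in Foxp3-negative cells at day 13, and 50.5 and 118 at day 19.

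At day 19, Klrc1 in CD4 T cells was also higher in larger clonotypes. In day-19 CD4 T cells of clonotypes with 1, 2, 3 to 9 and 10 or more cells, Klrc1 was at 16.9, 42.5, 91.7 and 245 CPM, and Klrd1 at 64.2, 92.6, 132 and 288. The top class rested on 1 clonotype of 33 of its 56 cells: in the other 23 cells Klrc1 was at 68.0 and Klrd1 at 123, under the class of 3 to 9 cells. Day 13 had no such order: Klrc1 was at 11.1, 28.6 and 10.1 in clonotypes of 1, 2 and 3 to 9 cells, on 52, 12 and 1 UMIs, and Klrd1 at 86.2, 138 and 0 UMIs, the last in 11 cells. The largest CD4 clonotype, 33 cells of set 2 with the V segments TRAV6-7-DV9 and TRBV31, had 398 of Klrc1, 431 of Klrd1 and 86.8 of Klre1. Its Klrc1 UMIs were detected in 72.7% of its thinned cells. Klrc1 in CD4 T cells of day 19 was at 41.8 without this clonotype and at 29.6 without any clonotype of at least 3 cells, against 14.9 in all CD4 T cells of day 13. The same nucleotide pair of receptor chains was seen in 3 CD4 T cells of set 4, with 13 Klrc1 UMIs, and in 1 of set 3, with 2.

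Set against each other, CD8 and CD4 T cells differed in all 7 genes and on both days, with 6 higher in CD8 T cells by the fold and Klrg1 lower. The background was 3.63% of 10321 genes higher and 9.61% lower at day 13, and 3.06% of 10233 higher and 10.0% lower at day 19, with medians of -0.042 and -0.12. On both days the 4 CD8 sets lay above the 4 CD4 sets for 6 members, as they did for 15.5% of genes at day 13 and 10.5% at day 19, and below them for Klrg1, as for 22.0% and 23.1%. The ratio of CD8 over CD4 T cells was 1.77 at day 13 and 2.35 at day 19 for Klrd1, and 3.34 and 2.10 for Klrc1. It was 3.49 and 2.94 for Klrc2, 1.28 and 1.58 for Klrk1, and 3.01 and 3.54 for Klre1. For Klrb1c it was 1.15 (0.66 to 1.69) and 3.35 (2.83 to 3.93).
Klrg1 had -1.0 (-1.26 to -0.74) at day 13, at the edge of the fold, and -3.32 (-3.64 to -3.02) at day 19. At day 13 it was under the fold in 8 alternatives, among them a minimum of 8000 UMIs per cell (-0.27) and the fits without set 3 (-0.95) or set 4 (-0.83) of day 13. Klrk1 and Klrb1c of day 13 were also under the fold at this minimum (0.94 and 0.73) and with cells outside the sets added (0.97 and 0.47). Klrb1c was under it as well with classes by at least 2 UMIs (0.54) and in cells with under 10 myeloid UMIs (0.76).
In cells with under 10 myeloid UMIs the ratios were larger for Klrk1 (2.46 and 3.37) and Klrd1 (2.91 and 2.60), and further below 0 for Klrg1 (-1.52 and -4.10). They were smaller there for Klrc1 (3.05 and 1.85) and Klre1 (2.75 and 3.48), and were 2.85 and 3.72 for Klrc2 and, at day 19, 3.73 for Klrb1c.
In CD4 T cells Klrc2 rested on 8 and 18 UMIs and Klrd1 on 727 and 980.

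Cells with neither coreceptor lay between the classes for Klrk1, Klrd1, Klre1 and Klrg1 on both days and above both for Klrb1c and Klrc2. They had 21.9 and 36.6 CPM of Klrb1c and 19.4 and 15.6 of Klrc2, against 10.1 and 29.9, and 11.1 and 13.4, in CD8 T cells. Klrc1 had 44.1 and 43.4 there, under the 54.2 of CD4 T cells at day 19. T cells with TRAV11 and TRAJ18, the chain of invariant NKT cells, were 32 at day 13 and 22 at day 19 and were singled out after values had been seen. They had 71.5 and 199 of Klrb1c, 238 and 224 of Klrk1 and 303 and 282 of Klrd1. Without them the cells with neither coreceptor had 19.6 and 27.6 of Klrb1c, which at day 19 was under the 29.9 of CD8 T cells.

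CD8 T cells were then split by detected Pdcd1 (the checkpoint receptor PD-1), Tcf7 (the factor TCF1 of progenitor exhausted cells) and Havcr2 (the checkpoint receptor TIM-3 of terminally exhausted cells), each read after thinning. Among Pdcd1-positive CD8 T cells, 145 at day 13 and 250 at day 19 had Havcr2 without Tcf7, and 323 and 103 had Tcf7 without Havcr2. Klre1 was higher by the fold in the Havcr2 state on both days, and Klrc1 at day 19. Of the members with at least 100 UMIs, 4 at day 13 and 5 at day 19, these were 1 and 2 higher, with 0 lower. The background was 3.2% higher and 2.51% lower of 5618 genes at day 13, and 3.95% and 2.56% of 5271 at day 19, with medians of 0.13 and -0.029. All Havcr2 sets lay above all Tcf7 sets for 3 of the 7 members at day 13 and 2 at day 19, as for 11.0% and 5.96% of genes, and below them for 1 and 1, as for 6.87% and 5.5%.

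Klre1 in the Havcr2 state had 83.4 CPM at day 13 and 166 at day 19, against 32.3 and 38.5 in the Tcf7 state, with ratios of 1.37 (0.99 to 1.75) and 2.11 (1.67 to 2.58). Without cycling cells the day-13 ratio was 0.96. On both days the lowest set of the Havcr2 state, 49.3 and 63.5, lay above the highest of the Tcf7 state, 38.9 and 52.0.
Klrc1 had 317 and 448 against 175 and 176, with ratios of 0.86 (0.68 to 1.03) and 1.35 (1.14 to 1.56), and its sets did not overlap either.
Klrd1 had 465 and 746 against 292 and 383, with ratios of 0.67 (0.53 to 0.81) and 0.96 (0.82 to 1.11). In sets, it was higher in the Havcr2 state in 4 of 4 at day 13 and 3 of 4 at day 19.

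Klrk1 was high in both states, at 205 and 227 in the Havcr2 state and 201 and 184 in the Tcf7 state, with ratios of 0.033 (-0.15 to 0.22) and 0.30 (0.082 to 0.52). Klrc2 was at 5.74 and 10.3 against 6.52 and 17.6, on 11 to 34 UMIs. Its intervals held 0, and at day 19 it was lower in the Havcr2 state in 4 of 4 sets.
Klrb1c had 1 UMI in the Havcr2 state of day 13 against 18 in the Tcf7 state, a ratio of -3.57 (-8.95 to -0.90) that was -0.58 with cells outside the sets added, and 84 against 23 at day 19, a ratio of 0.41 (-0.27 to 1.14) that was past the fold without cycling cells (1.67) or without set 1 of day 19 (1.13). Klrg1, at 24 and 24 UMIs and at 7 and 4, had intervals that held 0.

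Outside these 2 states, Pdcd1-negative cells with Tcf7, 1215 and 534 in number, were the largest group. Klrc1 was lowest there among the 5 larger groups, at 100.4 and 73.4 CPM. It had 106 and 139 in Pdcd1-negative cells with neither Tcf7 nor Havcr2, 175 and 176 in Pdcd1-positive cells with Tcf7, 201 and 359 in those with neither, and 317 and 448 in those with Havcr2. The thinned share of cells with Klrc1 went from 23.2% and 16.3% in the first of these groups to 63.4% and 77.6% in the last.
Klrb1c ran the other way at day 13, with 20.9 in Pdcd1-negative Tcf7 cells, 9.01, 6.18 and 1.31 in the next 3 groups and 0.52 in Pdcd1-positive Havcr2 cells. At day 19 it had 27.7, 45.5, 19.3, 25.4 and 25.5 in these groups, with no such order.
Klrg1 at day 13 was low in Pdcd1-negative Tcf7 cells, at 2.95, and 17.6 in the Pdcd1-negative cells with neither gene. At day 19 the 5 groups lay between 2.13 and 6.25.

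**Figure D2:**
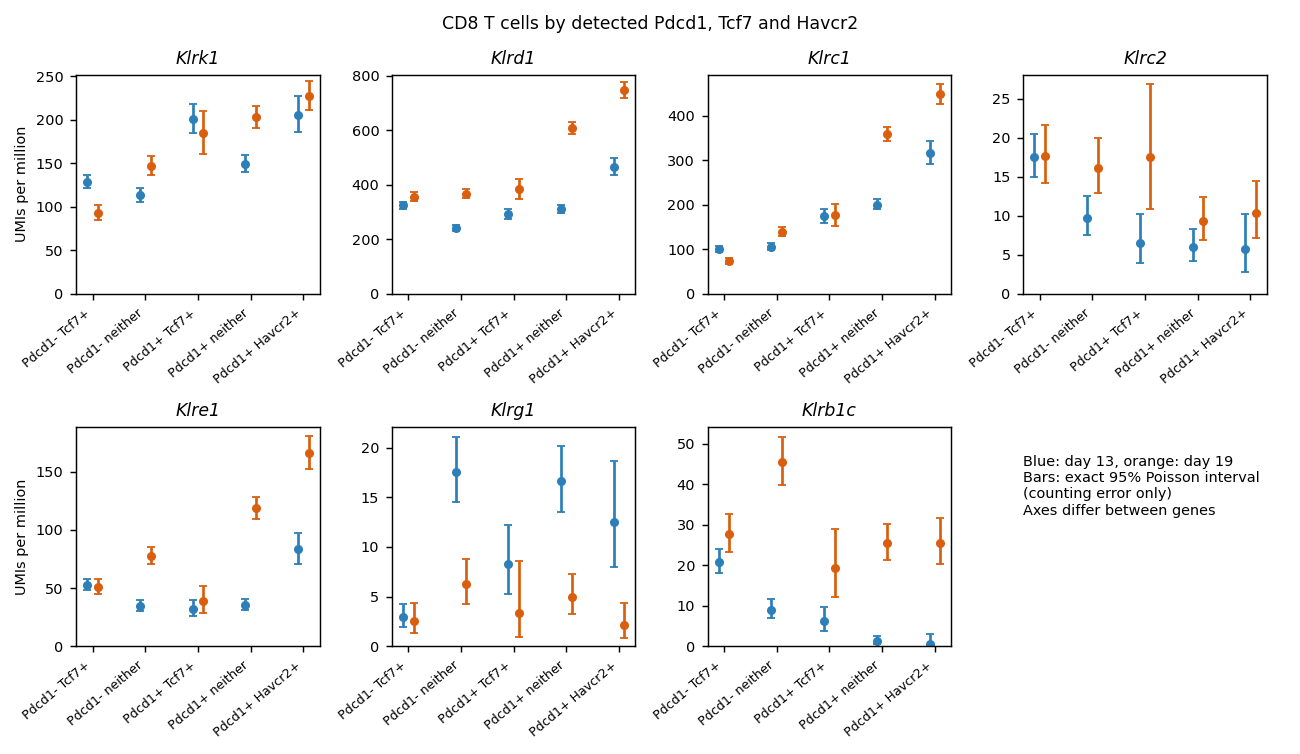
Level of each receptor gene in CPM in CD8 T cells grouped by detected Pdcd1, Tcf7 and Havcr2, with exact 95% Poisson intervals and linear axes from 0 that differ between genes. Klrc1 climbs from the Pdcd1-negative Tcf7 group, 100.4 at day 13 and 73.4 at day 19, to the Pdcd1-positive Havcr2 group, 317 and 448. Klrb1c goes from 20.9 to 0.52 along the same axis at day 13 and from 27.7 to 25.5 at day 19, and the difference between the days was not tested.

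Clonal expansion was read in cells with exactly 1 TRA and 1 TRB chain. Expanded cells, of clonotypes with at least 3 cells in a set, were 518 at day 13 and 336 at day 19. Single cells, of clonotypes with 1 cell, were 1491 and 767. At day 13, 0 of the 7 members were higher by the fold in expanded cells and 2 were lower (Klrc2 and Klrb1c). At day 19, Klrg1 had under 100 UMIs, and of the 6 members with at least 100, 2 were higher (Klrc1 and Klre1) and 1 was lower (Klrc2). The background was 3.11% higher and 2.37% lower of 9104 genes at day 13, and 3.75% and 2.87% of 8197 at day 19, with medians of 0.11 and 0.054. All expanded sets lay above all single sets for 1 of the 7 members at day 13 and 3 at day 19, as for 15.3% and 10.7% of genes, and below them for 2 and 0, as for 7.51% and 6.78%.

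Klrc1 was higher in expanded cells in 4 of 4 sets on both days. Expanded sets spanned 186 to 345 CPM at day 13 and 290.4 to 500.3 at day 19, above the single cells at 113 to 168 and 87.7 to 135. The summed levels were 242 against 125 and 405 against 112, with ratios of 0.96 (0.85 to 1.06) and 1.86 (1.74 to 1.97). Its partner Klrd1 had 336 against 299 at day 13, a ratio of 0.17 (0.090 to 0.25), and 633 against 364 at day 19, a ratio of 0.80 (0.72 to 0.87). Klrk1 had 154 against 141, with an interval of 0.0049 to 0.23, and 216 against 124 at day 19, a ratio of 0.81 (0.68 to 0.93).
Klre1 was lower in expanded cells at day 13, 40.5 against 50.01 with a ratio of -0.30 (-0.52 to -0.089), and higher at day 19, 150.1 against 58.4 with a ratio of 1.36 (1.19 to 1.54). The sign differed between the days, and that difference was not tested.

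Klrc2 was lower in expanded cells on both days, 6.31 against 13.4 and 8.14 against 17.2, with ratios of -1.08 (-1.63 to -0.57) and -1.08 (-1.66 to -0.54). It was under the fold in several alternatives, among them without set 1 (-0.81) or set 3 (-0.98) of day 19, and at day 13 without cycling cells (-0.81). It had the opposite direction to Klrc1, the other chain that pairs with CD94, in 4 of 4 sets of each day.
Klrb1c had 2 UMIs in expanded and 186 in single cells at day 13, a ratio of -5.40 (-8.46 to -3.53), and expanded sets reached at most 1.70 CPM where single sets had at least 12.2. The day-13 ratio was -3.10 with clonotypes of 2 cells counted as expanded and between -5.25 and -4.39 with a set left out. At day 19 it had 27.7 against 32.3, a ratio of -0.22 (-0.55 to 0.095). Without cycling cells, the day-19 ratio was 0.82.
Klrg1 had 13.0 against 9.13 at day 13, a ratio of 0.51 (0.076 to 0.93), and 8 against 46 UMIs at day 19, a ratio of -1.59 (-2.88 to -0.49) that was -0.89 with clonotypes of 2 cells counted as expanded.

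Read across the days, the values of single cells lay closer together than those of expanded cells for all members but Klrc2, a difference that was not tested. Single cells went from 125 to 112 for Klrc1, from 141 to 124 for Klrk1, from 299 to 364 for Klrd1 and from 50.01 to 58.4 for Klre1. Expanded cells went from 242 to 405, from 154 to 216, from 336 to 633 and from 40.5 to 150.1 in the same genes. Klrb1c went from 14.0 to 32.3 in single and from 0.33 to 27.7 in expanded cells, and Klrg1 from 9.13 to 5.58 and from 13.0 to 1.86. Klrc2 went from 13.4 to 17.2 in single and from 6.31 to 8.14 in expanded cells. Expanded cells were also higher within Pdcd1-positive cells at day 19, where Klrc1 had 444 in expanded and 206 in single cells, and within Pdcd1-negative cells, where it had 288 and 85.6. In Pdcd1-positive cells of day 13 it had 251 and 206, and in Pdcd1-negative cells 221 and 94.6.

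**Figure D3:**
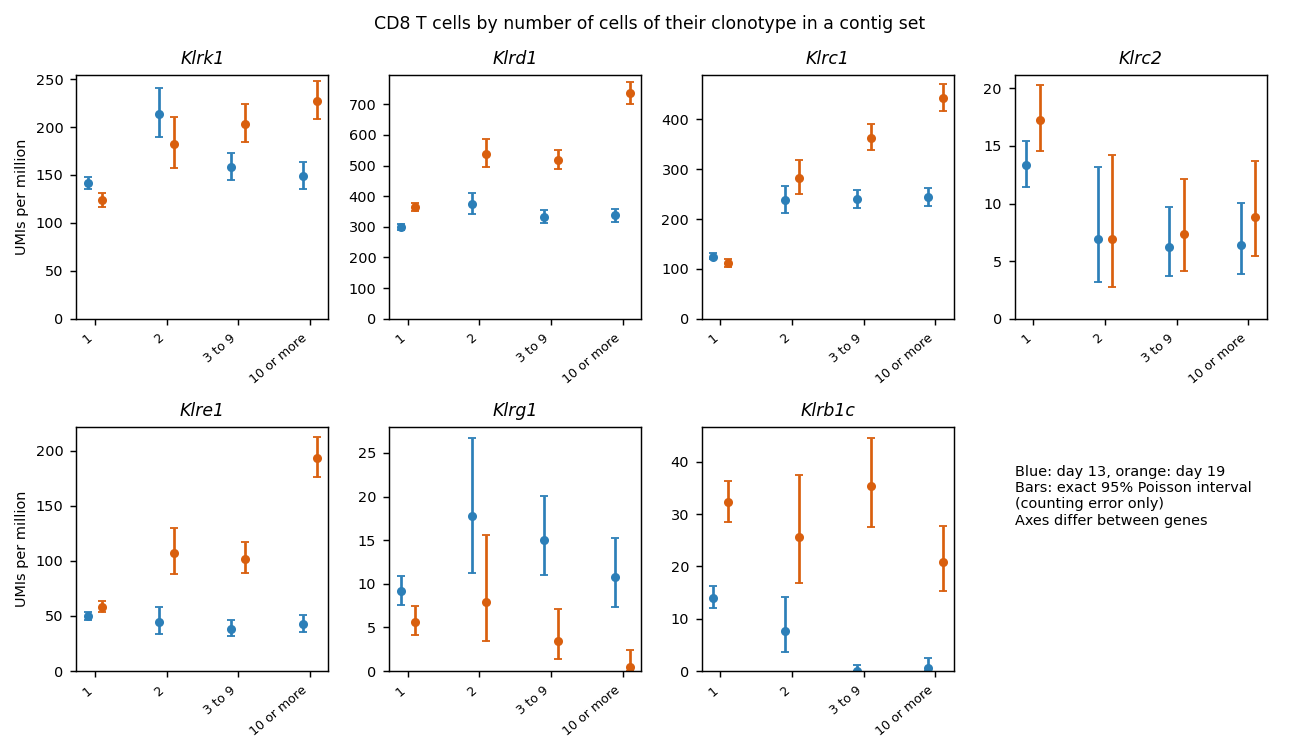
Level of each receptor gene in CPM in CD8 T cells whose clonotype held 1, 2, 3 to 9, or 10 or more cells of a set, with exact 95% Poisson intervals and linear axes from 0 that differ between genes. At day 19 Klrc1 goes from 112 to 443 and Klre1 from 58.4 to 194 over the 4 sizes. At day 13 Klrc1 goes from 125 to 239 at 2 cells and stays level, and Klrb1c is at 0 UMIs in clonotypes of 3 to 9 cells.

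By clone size at day 13, Klrc1 had 125, 239, 240.3 and 244 CPM in clonotypes of 1, 2, 3 to 9 and 10 or more cells. At day 19 it had 112, 283, 363 and 443. Klrd1 at day 19 had 364, 538, 518 and 736, and Klre1 58.4, 107, 102 and 194. Without the largest clonotype, the last class at day 19 had 360.1 of Klrc1, level with clonotypes of 3 to 9 cells, 637 of Klrd1 and 167 of Klre1. Klrb1c at day 13 had 0 UMIs in the 266 cells of clonotypes with 3 to 9 cells, which allows up to 0.98 CPM, against 14.0 in single cells.

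The CD8 clonotypes with at least 10 cells, 14 at day 13 and 5 at day 19, differed widely. At day 13 Klrc1 ran from 0 of 149016 UMIs, in a clonotype of 15 cells with TRAV16D-DV11 and TRBV14, to 463 CPM, with a median of 216. That clonotype also had 0 UMIs of Klrc2, Klre1, Klrg1 and Klrb1c, with 3 of Klrk1 and 9 of Klrd1. At day 19 Klrc1 ran from 245 to 615, with a median of 379. Klrd1 ran from 60.4 to 555 at day 13 and from 453 to 941 at day 19. Klre1 was at 0 in 5 of the 14 clonotypes of day 13 and in 0 of the 5 of day 19, where it ran from 111 to 249. Klrb1c was at 0 in 13 of the 14 and in 1 of the 5, Klrg1 at 0 in 7 of the 14 and in 4 of the 5, and Klrk1 at 0 in none.
The largest clonotype of day 19, 71 cells with TRAV6D-5 and TRBV26, had 338 of Klrk1, 941 of Klrd1, 615 of Klrc1 and 249 of Klre1, and 45.1% of its cells were in the Pdcd1-positive Havcr2 state. Clonotypes with TRAV7D-2 and TRBV16 were seen on both days with different nucleotide sequences. The day-13 clonotype, 32 cells, had 328 of Klrd1 and 169 of Klrc1, and those of day 19, 47 and 27 cells, had 612 and 792 of Klrd1 and 379 and 391 of Klrc1. Only 4 CD8 clonotypes, with 4 cells at day 13 and 22 at day 19, shared both nucleotide sequences between the days.

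**Figure D4:**
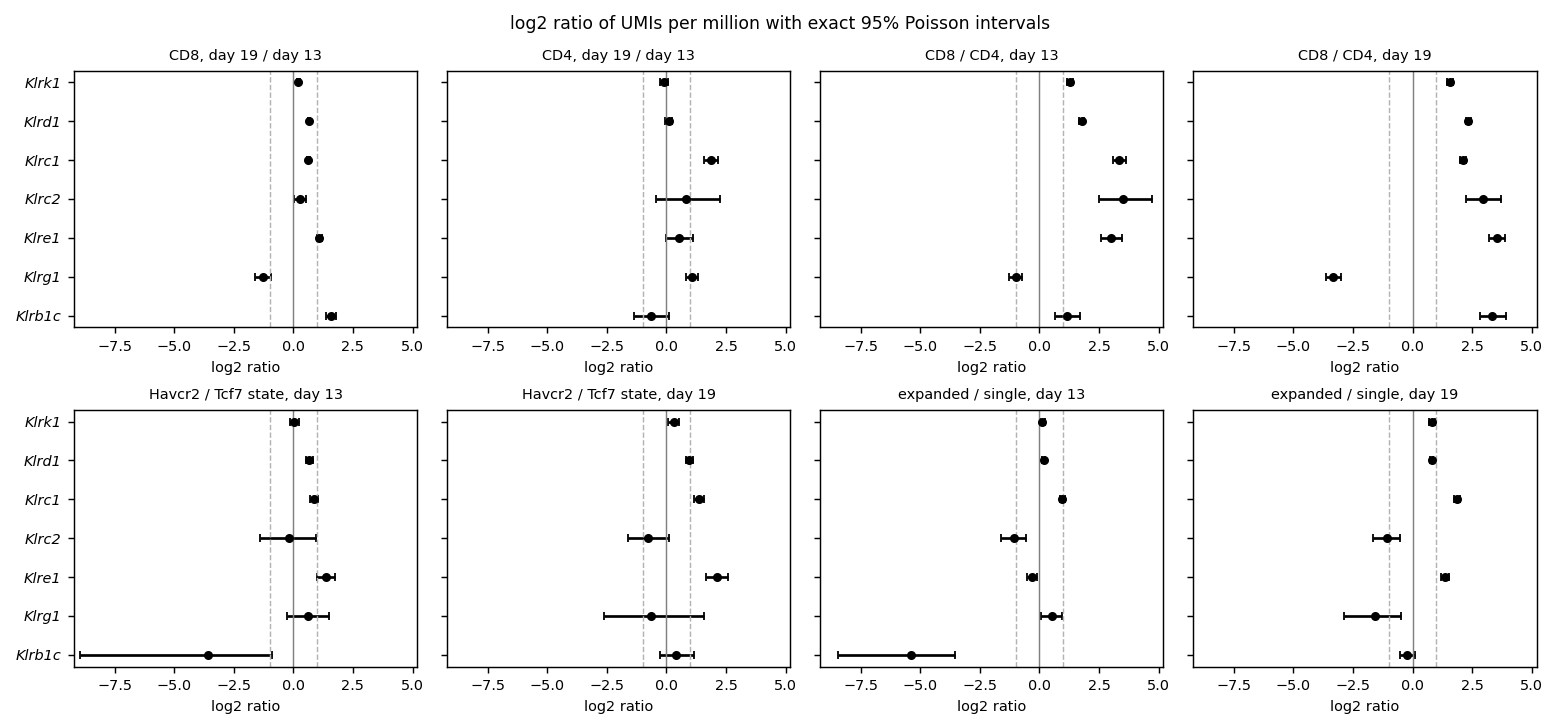
The log2 ratio of CPM for each receptor gene in the 8 comparisons, with exact 95% Poisson intervals that cover counting error only. Dashed lines mark the fold at -1 and 1. In the CD8 over CD4 panels 6 genes lie to the right and Klrg1 to the left, and in the expanded over single panels Klrc1 and Klrc2 lie on opposite sides.

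Some of the receptors were found together in the same cells. In thinned CD8 T cells 1 member was still the commonest number, in 32.6% at day 13 and 25.1% at day 19. After thinning, 22.9% of CD8 T cells at day 13 and 17.7% at day 19 had a UMI of none of the 7, and 4 of the 7 were found in 155 of 2959 and 245 of 1800 cells. In CD4 T cells 70.1% and 61.0% had none. Klrd1 was found in 300 of 375 CD8 T cells with a Klre1 UMI (80%) and 57.7% of the rest at day 13, and in 93.1% and 66.8% at day 19. It was found in 71.1% of cells with Klrc1 and 55.5% of the rest, and in 87.4% and 63.3% at day 19. Klrc1 was found in 52.7% of cells with Klrk1 and 21.7% of the rest, and in 66.0% and 26.9% at day 19.
Klrb1c went with Klre1 and Klrc2. At day 13, 55.3% of Klrb1c-positive CD8 T cells had Klre1 and 23.7% had Klrc2, against 11.0% and 4.67% of the rest, and at day 19 the shares were 45.2% and 13.5% against 23.1% and 5.47%. Klrc1 and Klrc2, which compete for the same partner, differed less. Klrc2 was found in 6.40% of Klrc1-positive and 4.94% of other cells at day 13, and in 7.15% and 5.45% at day 19, with intervals that overlap. Klrg1 showed no such tie beyond its intervals, with Klrd1 in 52.7% of the 93 Klrg1-positive cells at day 13 and 60.8% of the rest. Each cell was thinned to the same 5000 UMIs for these shares.

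Across 27 groups of at least 50 cells (class, state, clone size and day), Klre1 followed Klrd1 most closely of the members, with a Pearson correlation of 0.94 in log2 level. Klrk1 had 0.89 with Klrd1 and 0.88 with Klre1, Klrc1 0.87 with Klrd1, and Klrg1 values below 0 with all 6. Groups share cells and libraries, so these are descriptions. Of 8327 other genes with at least 500 UMIs, Ctsw, a protease gene of cytotoxic lymphocytes, was most like Klrd1 (0.93) and Klre1 (0.92), and Wdr95 was most like Klrc1 (0.92), followed by the granule gene Nkg7 (0.92) and Nr4a2 (0.90). Dennd4a was most like Klrk1 (0.92), the survival gene Bcl2 most like Klrc2 (0.89), the IL-2 receptor gene Il2ra most like Klrg1 (0.85) and Atp1b1 most like Klrb1c (0.84). The Ly49 gene Klra3 came next for Klrb1c, with 0.80.

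The adaptors carry the signal of receptors that lack one of their own. Of 13 adaptor and signalling genes, Fcer1g, the chain that couples NK1.1 and Fc receptors, was the 1 higher by the fold in CD8 T cells at day 19, at 821 against 407 CPM, a ratio of 1.01 (0.98 to 1.05), with 0 lower and a list median of -0.15. Fcer1g also stood at 1291 in the Havcr2 state and 361 in the Tcf7 state at day 19, a ratio of 1.84 (1.69 to 1.98), again 1 of the 12 with at least 100 UMIs. At day 13 it had 467 and 243, a ratio of 0.94 (0.80 to 1.09) under the fold, and 0 of 12 were past it. Hcst, the NKG2D adaptor, named at day 19 after its values were seen, had 660 and 431 in these states at day 19 (0.62), and 410.4 and 515 at day 13 (-0.33). In CD8 over CD4 T cells 0 of the 13 were higher and 3 at day 13 and 2 at day 19 were lower. These included Tyrobp, with 251 and 941 at day 13 (-1.91), and Syk, with 12.5 and 54.6 (-2.12), and both are also expressed by myeloid cells, whose markers were higher in CD4 T cells by the values above. The part of myeloid RNA in the Fcer1g values was not tested. Of CD8 T cells, 15.3% at day 13 and 24.9% at day 19 had at least 10 myeloid UMIs.

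Ligand genes were sparse in these sorted cells. Of 8 listed, 3 had at least 100 UMIs in the CD8 comparison of days and 0 passed the fold. H2-T23, the Qa-1 heavy chain read by the CD94 pairs, had 889 CPM in CD8 T cells at day 13 and 633 at day 19 (-0.49), and 1088 and 913 in CD4 T cells (-0.25). Cdh1, the cadherin read by Klrg1, had 7.59 and 14.3 in CD8 T cells (0.91) and was higher in CD8 than CD4 T cells, by 1.43 at day 13 and 1.24 at day 19.

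Of 13 related lectin-like receptors, 12 were in the files. Klrb1a and Klri2, the first a neighbour of Klrb1c and the second a partner of Klre1, were higher by the fold in CD8 T cells at day 19, 2 of the 6 with at least 100 UMIs, with 0 lower and a median of -0.012. Klrb1a had 2.04 and 5.92 CPM (1.54) and Klri2 2.67 and 5.92 (1.15). Cd69, an early activation and residency receptor, was lower in the Havcr2 than the Tcf7 state, 260 against 545 at day 13 (-1.07) and 201 against 354 at day 19 (-0.81). It was also lower in expanded than single CD8 T cells at day 19, 206 against 443 (-1.10).

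Of 16 regulators, 0 passed the fold between the days in CD8 or CD4 T cells. Id2, which supports effector and NK programs, was higher in the Havcr2 than the Tcf7 state by 1.15 at day 13 and 1.34 at day 19, and Id3, a progenitor factor, had a ratio of -3.08 at day 13. In expanded against single cells Id3 had ratios of -2.30 and -3.94, Bach2 -1.87 and -2.66, and Prdm1 1.27 and 1.18. For the states, 1 regulator was higher and 2 lower of 12 with at least 100 UMIs at day 13 (median -0.045). At day 19, 3 were higher and 1 lower of 8 (0.61). In expanded against single cells, 1 was higher and 3 lower of 15 at day 13 (0.041), and 3 and 3 of 15 at day 19 (0.28). Of 13 NK cell and cytotoxic genes, 9 of the 11 with at least 100 UMIs were higher in CD8 than CD4 T cells and 2 lower (Fcgr3 and Cx3cr1) on both days, with medians of 1.60 and 1.78. Between the days in CD8 T cells, 1 of these 11 was higher and 1 lower, with a median of 0.080. In the Havcr2 against the Tcf7 state 5 were higher and 2 lower at day 13 (median 0.73) and 4 and 3 at day 19 (0.22), and in expanded against single cells 2 and 1 (0.75) and 4 and 2 (0.22). Prf1, the perforin gene and the highest ratio of the list in these 5 comparisons, was higher by the fold in CD8 T cells at day 19 (1.02), in the Havcr2 state (2.63 and 4.01) and in expanded cells (2.10 and 2.75). The lists were chosen with earlier results of these data known, so their counts are descriptions.

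The droplets outside the sets held cells with no T cell mark, in which the receptors could be read beside lineage markers chosen after values had been seen. Of these 1017 and 343 cells, 12 at day 13 and 16 at day 19 had at least 2 UMIs of Ncr1, an NK cell receptor gene. By value, 5 members were higher in them than in CD8 and CD4 T cells on both days. Klrb1c had 463 CPM at day 13 and 458 at day 19, Klre1 331 and 357, Klrd1 739 and 961, Klrk1 496 and 478, and Klrc2 77.2 and 89.1. Klrc1 had 110.3 and 204, under the 151 and 232 of CD8 T cells. Klrg1 had 14 UMIs at day 13 (154 CPM) and 2 at day 19 (12.7 CPM), under the 48.5 of CD4 T cells.

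Klrk1 and Klrd1 were also found in cells with markers of 3 kinds of dendritic cell, in which the other 5 members lay between 0 and 18.5 CPM. Klrk1 had 278 and 296 CPM in Fscn1-positive cells, a marker of mature dendritic cells, 213 and 222 in cells with Cd209a, a marker of type 2 dendritic cells, and 183 and 162 in cells with Clec9a or Xcr1, markers of type 1 dendritic cells. Klrd1 had 204 and 118 in the first, 316 and 260 in the second and 103 and 170 in the last. The cells with Siglech but not Tmem119, a mark of plasmacytoid dendritic cells, were few (20 and 5) and had Klrd1 at 225 and 141 but Klrk1 at 30.4 at day 13, on 5 UMIs and under the cells with Tmem119 or C1qa, and 101 at day 19, also on 5 UMIs. In 97 and 21 Fscn1-positive cells, Klrc1, Klrc2, Klrg1 and Klrb1c were at 0 UMIs on both days, which allows up to 3.18 and 15.3 CPM. Klrk1 UMIs were found in 75.3% and 61.9% of the thinned Fscn1-positive cells, against 15.1% and 20.2% of cells with Tmem119 or C1qa, so the share was not alike over cell types. In cells with Tmem119 or C1qa, markers of microglia and macrophages, Klrk1 was at 46.2 and 78.0 and Klrd1 at 42.8 and 45.2, with Klrc1 UMIs in 0.58% and 1.12% of thinned cells. That share is a background for the 32.2% and 41.9% in CD8 T cells, at median depths of 9156 and 9634 UMIs in all cells with no T cell mark against 7449 and 9847 in CD8 T cells.

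**Figure D5:**
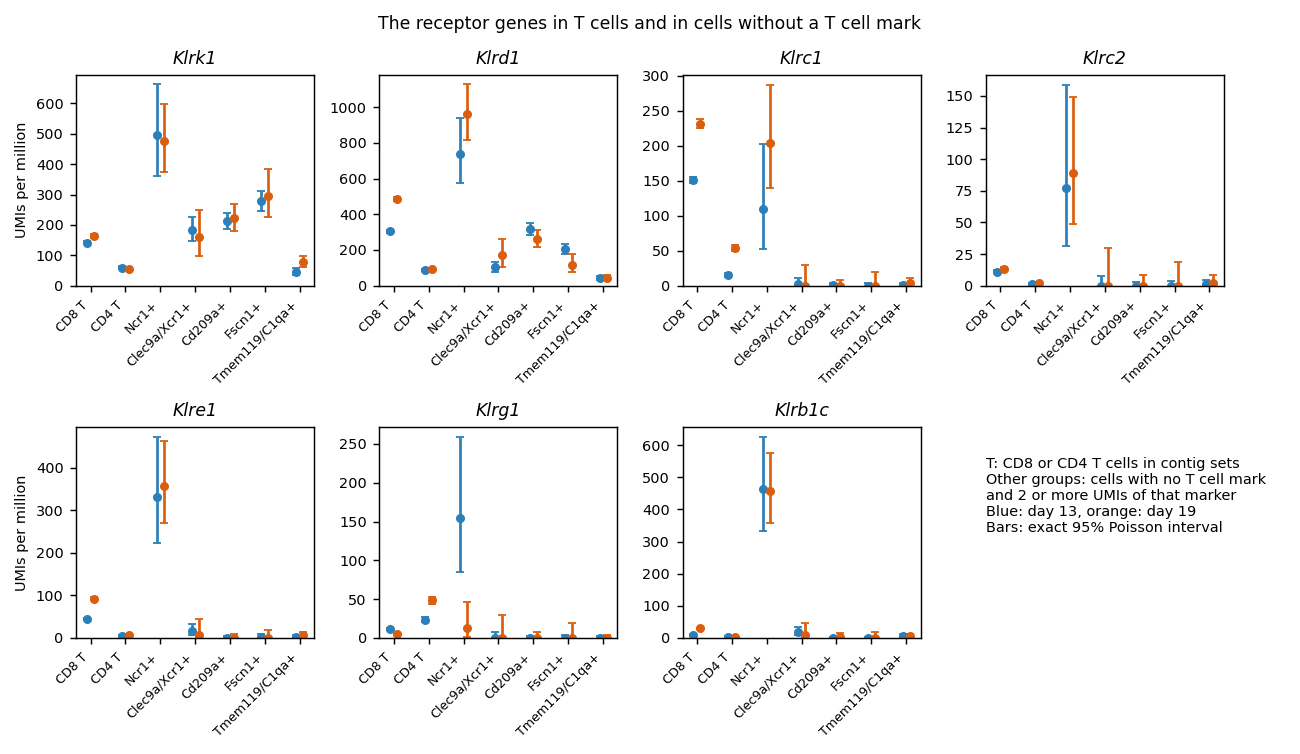
Level of each receptor gene in CPM in CD8 and CD4 T cells and in cells with no T cell mark grouped by at least 2 UMIs of a marker, with exact 95% Poisson intervals and linear axes from 0 that differ between genes. The Ncr1-positive cells are the highest group for all genes but Klrc1 and, at day 19, Klrg1. Klrk1 and Klrd1 are also present in the 3 groups with dendritic cell markers, where Klrc1 lies between 0 and 2.05.

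The antibody tags gave a second readout of 2 members. Among T cells, those with 3 or more Klrg1 UMIs, 61 at day 13 and 62 at day 19, had 39.4 and 46.4 KLRG1 tag UMIs per 10000 tag UMIs. The minimum of 3 UMIs was chosen after values had been seen, and T cells with any Klrg1 UMI had 35.5 (34.3 to 36.7) and 35.8 (34.1 to 37.5). T cells with none had 31.0 and 28.7, and the intervals of the first and last groups did not overlap (37.2 to 41.8 against 30.7 to 31.2, and 43.2 to 49.8 against 28.3 to 29.1). The IgG1 isotype tag stood at 24.7 and 24.1 with 3 or more UMIs and 26.0 and 24.6 with none. For the NK1 tag, CD8 T cells with a Klrb1c UMI had 38.0 and 38.4 and those without 36.3 and 36.2. These intervals overlapped at day 13 (36.6 to 39.4 against 36.0 to 36.6) and not at day 19 (37.0 to 39.9 against 35.6 to 36.8). The Ncr1-positive cells had 41.7 (36.8 to 47.0) and 50.8 (44.2 to 58.0) of the NK1 tag. The IgG1 tag stood at 25.9 and 24.1 in CD8 T cells with a Klrb1c UMI and 26.0 and 25.0 without. Intervals lay apart for other tags too. At day 19, T cells with and without a Klrg1 UMI had 97.9 to 103.7 against 108.3 to 109.9 of the CD335 tag. For IgG1 they had 21.2 to 24.0 against 24.2 to 25.0, so intervals that lie apart do not by themselves show the receptor. Between the classes, the KLRG1 tag did not show the difference seen in Klrg1 RNA. On day 13 this tag stood at 31.3 in the CD8 class and 30.9 in the CD4 class. On day 19 the values were 28.9 and 29.7, and the intervals overlapped on each day. For the NK1 tag the classes had 36.4 and 35.8 on day 13, with intervals that overlapped. On day 19 they had 36.5 and 34.8, with intervals that lay apart. Tag contrast was small throughout: the CD4 tag itself had 10.2 and 14.4 in CD4 T cells and 7.09 and 6.82 in CD8 T cells. Staining was done once per day, so tags are not compared between the days.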

How the data were processed

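Values are raw UMI counts, as deposited, of genes and antibody tags in every barcode, and the deposited TCR tables list contigs with their UMI counts. Per the submitters' processing notes, bcl2fastq 2.20, Cell Ranger 4.0.0, STAR 2.7.5c, Seurat, R 4.1.2 and mm10 were used. All 14 files were read, and 0 columns lacked a sample.

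Counts were summed per class, state, clone-size group and day, and levels are CPM (UMIs per 1000000 gene UMIs). Ratios have exact 95% Poisson intervals and shares exact binomial (Clopper-Pearson) intervals. For counts of all genes past the fold, a group sum under 3 counts was set to 3. States and shares of cells with a UMI were read after thinning each cell to 5000 UMIs. Clonotypes were cells with exactly 1 TRA and 1 TRB chain and identical nucleotide CDR3 sequences in a set. No doublet caller was used: cells with both coreceptors were left out, and an alternative kept cells with exactly 1 TRA and 1 TRB chain. Python 3.11.15 with numpy 2.4.6, scipy 1.17.1, pandas 2.3.3 and matplotlib 3.10.9 was used. On simulated data for the CD8 comparison of days (2000 genes), 95.2% of intervals held the true ratio and 199 of 200 changed genes were recovered. The simulated sums were Poisson draws with no spread between cells, clonotypes or sets. A share near 95% was therefore set by the design, which checks the computation and not how well the intervals suit these data.

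All 7 members are named. From 5 gene lists, the 2 highest and 2 lowest genes by ratio with at least 100 UMIs may be named, and for each member the genes with the highest correlation over 27 groups. The members and lists were chosen with earlier results of these data known. Promoter sequences are RefSeq's on GRCm38.p6 and matched 5 of the 7 members by symbol, and Klrd1 and Klrg1 are named only. The 24 alternative settings covered depth, mitochondrial share, class, myeloid RNA, cycling cells, chains, scaling, set weights, single sets, states and clonotypes.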

Additional observations from a re-analysis of the deposited data

Results flagged for a closer look

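Among the 28 groups of 4 sets (7 genes in CD8 and CD4 T cells on 2 days), 5 had a set that lay far from the other 3, where chance gives about 1 in 20. Klre1 in CD8 T cells of day 13 was at 60.7 CPM in set 1, against 40.1 to 42.0 in the others. In set 2 of day 19, Klrd1 in CD8 T cells was at 580.4, against 400.3 to 425, and Klrc1 in CD8 T cells was at 293, against 177 to 191. Klrd1 in CD4 T cells was at 130.1 in the same set, against 62.4 to 65.9. Klrg1 in CD4 T cells of day 19 was at 131 in set 1, which held 65 CD4 T cells, against 36.8 to 46.0.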

How the results depend on the processing

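No paired analysis was possible because, between the days, the labels tie no set number to the same mice. Within a day the groups share their sets, and the number of sets with each direction is given as a description, not as a test. Over 962 recomputed member ratios none that passed the fold changed sign, and 220 moved out of the counting interval. Counts of the 7 members past the fold moved in 46 of 276 values. They include members under 100 UMIs, so they start from 1 higher and 1 lower for the Havcr2 state at day 13 and from 2 and 2 for expanded cells at day 19. In CD8 T cells between the days, 0 were lower with a minimum of 2000 UMIs or with cells outside the sets, and 1 was higher with exactly 1 TRA and 1 TRB chain or with equal weight per set. Leaving out a set gave 1 to 2 higher and 0 to 1 lower. In CD4 T cells between the days, cells outside the sets gave 1 higher and 1 lower, under 10 myeloid UMIs gave 1 lower, the same with exactly 1 TRA and 1 TRB chain gave 3 higher (Klrc1 2.37, Klrd1 1.52 and Klre1 4.56, the last on 1 and 25 UMIs), and leaving out a set gave 1 to 2 higher. For CD8 over CD4 at day 13, 0 were lower with a minimum of 2000 or 8000 UMIs, classes by 2 UMIs, median-of-ratios scaling, CPM without ribosomal and mitochondrial genes or equal weight per set, and leaving out a set gave 0 to 1. For the Havcr2 over Tcf7 state at day 13, 2 were higher with a minimum of 8000 UMIs, under 10 myeloid UMIs (also with exactly 1 TRA and 1 TRB chain, an alternative chosen after seeing the data) or equal weight per set, 0 were lower with cells outside the sets, and leaving out a set gave 1 to 2 higher. At day 19, 1 was lower with a minimum of 2000 UMIs, cells outside the sets, exactly 1 TRA and 1 TRB chain or equal weight per set, no cycling cells gave 4 higher and 1 lower, and leaving out a set gave 2 to 4 higher and 0 to 1 lower. For expanded over single cells at day 13, 1 was lower with a minimum of 2000 or 8000 UMIs, classes by 2 UMIs or no cycling cells, 1 was higher under 10 myeloid UMIs or with expanded from 5 cells, and leaving out a set gave 0 to 1 higher and 1 to 2 lower. At day 19, 0 were lower with a minimum of 2000 UMIs and 1 with classes by 2 UMIs or expanded from 2 cells, no cycling cells gave 4 higher, and leaving out a set gave 1 to 2 lower. The causes were not tested. The expanded comparison was not run with all chain numbers or with cells outside the sets, which it cannot use.

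With genes of at least 20 UMIs in place of 100, the counts of all genes higher and lower by the fold went from 170 and 176 to 423 and 406 for CD8 T cells between the days, from 172 and 130 to 410 and 333 for CD4 T cells, from 375 and 992 to 624 and 1658 for CD8 over CD4 at day 13 and from 313 and 1023 to 565 and 1697 at day 19. For the states they went from 180 and 141 to 591 and 384 and from 208 and 135 to 557 and 516, and for expanded cells from 283 and 216 to 553 and 524 and from 307 and 235 to 612 and 623. Klrk1 in CD8 T cells between the days ranged from -0.027, without set 2 of day 19, to 0.33, and Klrc2 from -0.28, without cycling cells, to 0.53. In CD4 T cells Klrd1 ranged from -0.47 to 1.52 and Klrk1 from -0.69 to 0.20. No difference was tested over sets, and Klrc2, Klrg1 and Klrb1c are limited by counts under 20 in several groups.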
